A study of Mus musculus with 61 samples.

Results

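The question was whether CD4+ T cells that lack endogenous STAT5 and CD4+ T cells that keep it respond alike to the leukemic STAT5B variant Y665F. The measure was an interaction contrast, the Y665F response in STAT5-null cells minus the Y665F response in WT cells, where each response was the difference between Y665F and control-vector cells of the same replicate number. It compared 12 of the 61 libraries of the series, 3 in each of 4 groups. These were null and WT cells without a named insert, titled S5KO_CD4 and WT_CD4, and null and WT cells given Stat5b Y665F. The control titles name no vector, and by the study's account these cells carried the empty retroviral vector. A positive value means that the response was higher in null than in WT cells. All cells came from C57BL/6 mice aged 2 months. Naive CD4+ T cells were sorted from lymph nodes and spleens, activated through the T cell receptor and CD28, transduced, cultured with IL-2 and sorted for the GFP of the vector and for CD4. The null cells carried floxed Stat5a and Stat5b deleted with a Cre driven by the Cd4 promoter, so deletion began in the thymus, before the cells were sorted. The genotype entry of the labels names the floxed alleles for WT libraries too, and the background was taken from the titles. How many mice each replicate pooled was not given in the sources used here, so p-values measure a spread between libraries, not between mice. That spread was estimated over all 30 CD4+ T cell libraries. For responses and interactions it is what remained after differences between replicate numbers within a background were taken out.

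STAT5A and STAT5B are closely related transcription factors that wait in the cytoplasm until JAK kinases at a cytokine receptor phosphorylate them. They then pair through their SH2 domains, enter the nucleus and bind the palindrome TTCNNNGAA. In T cells they carry the signal of IL-2 and the other common gamma-chain cytokines, raise the IL-2 receptor alpha chain, survival genes and their own feedback inhibitors of the SOCS family, and oppose the follicular helper program led by BCL6. In WT cells the endogenous proteins and the vector-borne variant were thus present together, and in null cells the variant alone, apart from the residue given below. Y665F replaces a tyrosine of the SH2 domain by phenylalanine. The reference codon of that tyrosine lies in exon 16 of 19 of transcript Stat5b-202, at chr11:100787291-100787293 on the minus strand of GRCm38, and is shown in capitals within codons 662 to 668 of the 786 of the mouse coding sequence because it is the position that the variant changes:
Stat5b, substituted tyrosine and neighbours: gacctgaatTACctcatatat

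The 12 libraries held 24363231 to 47040687 reads on genes. Stat5b, the deleted gene and also the gene the vector carries, stood at 2.78, 5.3 and 9.49 CPM (reads of a gene scaled to library size) in null cells with the empty vector and at 187, 209 and 208 CPM in their WT counterparts. Stat5a, which only the genome supplies, stood at 1.7, 3.13 and 6.66 CPM in null and 137, 165 and 172 CPM in WT cells with the empty vector, so both deleted genes followed the labels, with the residue highest in null replicate 3. Cd3e and Cd4 were high in all 12 libraries, and the summed 12 T cell markers ranged from 4481 to 6627 CPM. Cd8a, Ms4a1, Lyz2 and Ncr1 stayed at or below 0.414 CPM. Other members of the B cell, NK and myeloid lists stood higher, among them Cd79a at up to 2.35, Ebf1 at up to 3.36, Eomes at up to 3.999 and Cd68 at up to 4.31 CPM. The summed B cell markers reached 5.54 CPM and the summed NK markers 4.09 CPM, both in null cells with the empty vector. Cd8b1, the other of the 2 CD8 markers, was present and stood at 20.1, 15.1 and 17.2 CPM in null cells with the empty vector and 12.7, 8.18 and 16.1 CPM with Y665F, against 7.53, 7.62 and 6.12 and 6.68, 8.8 and 5.69 CPM in WT cells. It was higher in null than in WT cells with the empty vector (1.30 ± 0.20 (SE, adjusted p = 6.22e-05)), its interaction was -0.53 ± 0.19 (SE, adjusted p = 0.134), and its part in the results was not tested. Among the 10 myeloid markers Cd74 alone gave most of the sum, which was 128 to 183 CPM in null and 34.6 to 89.1 CPM in WT cells. The replicate blocks differed in sex-linked transcripts: Xist stood at 1095 to 2068 CPM in WT replicate 3 and at no more than 3.21 CPM in WT replicates 1 and 2, while null replicates 1 and 3 held both Xist and Ddx3y and null replicate 2 held Ddx3y. On the second principal component, which took 13.9% of the variance, both WT libraries of replicate 3 lay apart from the WT libraries of replicates 1 and 2 with the same vector. On the first component, which took 54.9%, they also lay apart. They stood at -3.81 against 19.9 and 23 with the empty vector and at 20.7 against 43.1 and 47.3 with Y665F. Null replicate 3 with Y665F stood there at -19.9 against 4.72 and -0.493. The null libraries with the empty vector stood at -43.3, -47.8 and -43.5. The part of sex and of these replicate differences in the results was not tested, and counts without the replicate block and without WT replicate 3 are given beside the main ones.

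The Y665F response differed between the backgrounds for 295 of 21975 genes tested, or 1.34%, at an adjusted p under 0.05 and a log2 difference beyond 1. The response was higher in null cells for 208 of them (0.947% of genes tested) and higher in WT cells for 87 (0.396%). Among the 208 were the feedback inhibitors Socs2, Cish and Socs1, the receptor chains Il2ra and Il4ra and the cytokine genes Lta, Il3 and Il13; among the 87 were Bcl6, Cxcr5, Maf, Cd24a and Il18r1. Their median interaction was 1.65 and -1.49 on the log2 scale, against 0.09 over all genes tested. The same libraries gave both responses and the interaction, so the following is a description. Of the 208, 86 had responses above 0 in both backgrounds, with medians of 2.81 in null and 0.46 in WT cells, 111 had a response above 0 in null and below 0 in WT cells, and 11 had responses below 0 in both. Of the 87, 54 had a response below 0 in null and above 0 in WT cells, 28 were above 0 in both, with medians of 0.44 and 2.31, and 5 were below 0 in both. The 3 replicate responses of null cells did not overlap those of WT cells for 185 of the 208 and 80 of the 87 called genes, against 4047 of the 21975 genes tested, a separation that the calls themselves favour.

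The size of the list depended on how the replicates were matched. Replicate number was a block within each background, since libraries of the same number deviated together. Without the block 92 genes were called, 84 of them higher in null and 8 higher in WT cells, and all 92 were among the 295. Without the 5 libraries of WT replicate 3 the count was 515, with 307 higher and 208 lower, of which 289 were among the 295. Leaving out only the Y665F library of WT replicate 3 gave 504.

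**Figure D1:**
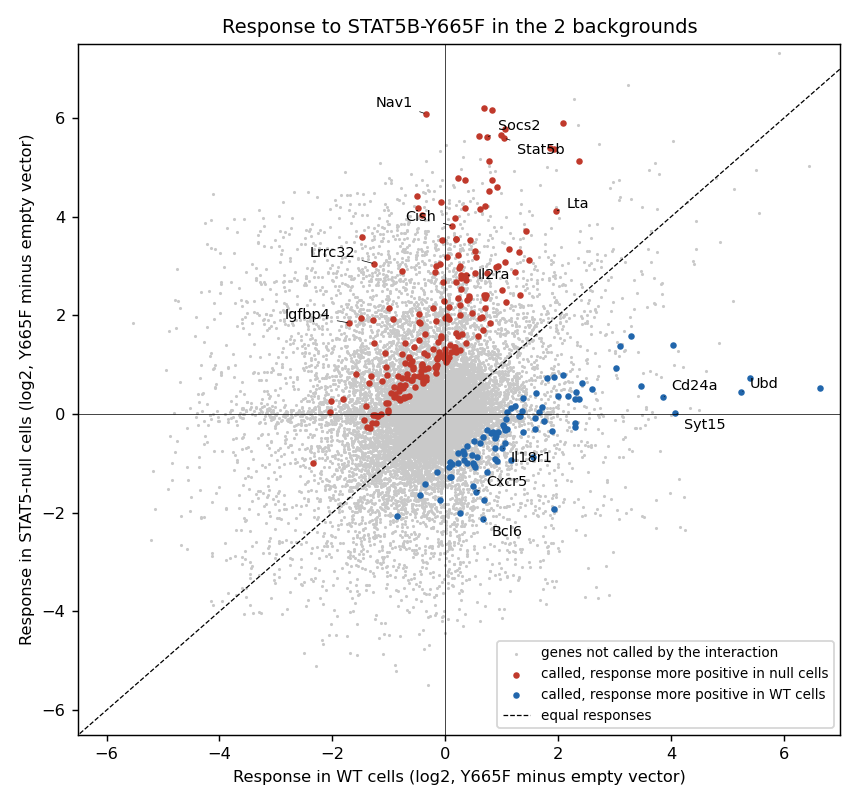
The log2 response to Y665F in STAT5-null cells (vertical) is plotted against the response in WT cells (horizontal) for the 21975 genes tested, with the 208 genes called higher in null cells in red and the 87 called higher in WT cells in blue. Red genes lie above and blue genes below the dashed line of equal responses, with Socs2, Stat5b and Nav1 near the top, Bcl6 and Cxcr5 below the horizontal axis and Cd24a, Ubd and Syt15 far to the right; grey points far from the origin that were not called include genes with few reads.

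All 3 called feedback inhibitors had the larger response in null cells. SOCS proteins and CIS, the product of Cish, are induced by cytokine signals and then blunt the receptor or its JAK kinase. Socs2 (GRCm38 chr10:95385362-95417180) stood at 2.86, 5.45 and 7.25 CPM in null cells with the empty vector and at 266, 329.9 and 180.3 CPM with Y665F. In WT cells it stood at 299.8, 336 and 197 CPM with the empty vector and 465, 552 and 356 CPM with Y665F. The null libraries with the empty vector were far below the other 9, and the null libraries with Y665F averaged 93.2% of the mean of WT cells with the empty vector, against 1.87% without it. Socs2 rose in null cells by 5.61 ± 0.22 (SE, adjusted p = 2.46e-18) on the log2 scale, the WT response was 0.73 ± 0.17 (SE, adjusted p = 0.00393), under the fold minimum, and the interaction was 4.88 ± 0.27 (SE, adjusted p = 6.01e-14).

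Cish (chr9:107296026-107302784) was at 10.2, 25.6 and 31.1 CPM in null cells with the empty vector and at 347, 364 and 223 CPM with Y665F. WT cells held 366, 526 and 298 CPM with the empty vector and 428, 408 and 415 CPM with Y665F, and these 2 WT groups overlapped. The interaction was 3.69 ± 0.31 (SE, adjusted p = 7.27e-10), with a WT response of 0.12 ± 0.21 (SE, adjusted p = 0.829). Socs1, an inhibitor of JAK kinases, followed the same course, from 8.24, 16.5 and 19.3 to 103, 119.6 and 57.3 CPM in null cells and from 104, 207 and 85.3 to 135, 136 and 144 CPM in WT cells, with overlapping WT groups and an interaction of 2.48 ± 0.31 (SE, adjusted p = 2.78e-06). Of the 8 SOCS family genes tested, 3 were called higher and none lower by the interaction, and the median interaction of the list was 0.80. Over all genes tested the interaction called 0.947% higher and 0.396% lower.

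Promoter sequence is shown for genes that the results turn on and that hold the STAT palindrome near a RefSeq start site (build GRCm38.p6), with each TTCNNNGAA in capitals. The window of Cish, 30 bases at chr9:107296654-107296683, plus strand, lies across the start site, with both copies just past it. All windows but those of Lta and Irf8 lie within the GENCODE M21 span of their gene. The windows of Lta (chr17:35205352-35205523, minus strand), Irf8 (chr8:120736167-120736233, plus strand, 1 of 2 start sites), Tnfrsf18 (chr4:156026203-156026251, plus strand), Bcl6 (chr16:23981343-23981471, minus strand, upstream of the second of its 2 start sites) and Il18r1 (chr1:40465767-40465882, plus strand, 1 of 3 start sites) lie upstream of a RefSeq start site:
Cish: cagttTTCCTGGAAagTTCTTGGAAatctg
Lta: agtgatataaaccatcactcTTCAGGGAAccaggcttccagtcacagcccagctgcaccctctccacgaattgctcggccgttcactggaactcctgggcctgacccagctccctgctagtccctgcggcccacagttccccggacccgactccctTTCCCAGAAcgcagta
Irf8: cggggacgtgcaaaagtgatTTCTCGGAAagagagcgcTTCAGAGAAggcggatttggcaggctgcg
Tnfrsf18: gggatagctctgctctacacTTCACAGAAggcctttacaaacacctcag
Bcl6: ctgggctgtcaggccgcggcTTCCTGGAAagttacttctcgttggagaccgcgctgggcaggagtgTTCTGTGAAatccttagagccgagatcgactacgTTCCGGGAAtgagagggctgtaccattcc
Il18r1: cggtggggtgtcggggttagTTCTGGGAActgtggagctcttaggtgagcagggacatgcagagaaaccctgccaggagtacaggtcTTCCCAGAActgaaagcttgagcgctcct
The motif stood in genes whose response was higher in null cells (Cish, Lta, Tnfrsf18), higher in WT cells (Bcl6, Il18r1) and not called as different (Irf8). Higher refers to the signed response, and Bcl6 fell in null cells. Over the table it was in 8.30% of 32851 promoters of 300 bases, 250 before and 50 after the start. At least 1 promoter held it for 9.16% of the 16149 tested genes with a matched entry, 11.1% of 153 matched genes called higher and 15% of 60 called lower by the interaction, and for 16.4% of 280 and 17.1% of 228 matched genes raised by Y665F in null and in WT cells. These shares are descriptions, genes with several start sites had more chances, and the palindrome reads the same on both strands.

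Of 8 common gamma-chain receptor genes, 2 were called with the higher response in null cells and none with the lower, and the list's median interaction was 0.21. The shares of all genes tested were 0.947% and 0.396%. Il2ra (chr2:11642807-11693193), the alpha chain that gives the IL-2 receptor its high affinity, stood at 154, 191 and 268 CPM in null cells with the empty vector and at 1423, 1791 and 1187 CPM with Y665F. In WT cells its levels were 1864, 2033 and 1266 CPM with the empty vector and 2403, 2495 and 1747 CPM with Y665F. Every null library with Y665F exceeded every null library without it, and the WT groups overlapped. The interaction was 2.44 ± 0.22 (SE, adjusted p = 2.87e-09), from 2.81 ± 0.16 (SE, adjusted p = 3.33e-14) in null and 0.38 ± 0.15 (SE, adjusted p = 0.116) in WT cells. Il4ra, the IL-4 receptor chain, went from 84.5, 87.9 and 110.3 to 307, 250.2 and 196 CPM in null and from 343, 480.5 and 315 to 398, 399 and 387 CPM in WT cells, an interaction of 1.32 ± 0.19 (SE, adjusted p = 2.78e-05). Il2ra and Il4ra were the 2 called members.

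Among 25 other cytokine receptors 2 were called, both with the higher response in WT cells, against 0.396% of all genes tested. Il18r1 (chr1:40465552-40500854), the ligand-binding chain of the IL-18 receptor, stood at 53.8, 75 and 26.8 CPM in null cells with the empty vector and 32.3, 49.4 and 15.7 CPM with Y665F, lower in each of the 3 replicates although the groups overlapped. WT cells held 49.2, 63.1 and 23.5 CPM without and 98, 124 and 48.1 CPM with the variant, higher in each of the 3 replicates. The responses were -0.69 ± 0.15 (SE, adjusted p = 0.00135) in null cells, under the fold minimum, and 1.0 ± 0.15 (SE, adjusted p = 1.94e-05) in WT cells, and the interaction was -1.69 ± 0.21 (SE, adjusted p = 2.79e-06). It was not called without the replicate block (adjusted p = 0.438). Il1r2, the decoy receptor of IL-1, fell from 6.82, 13.8 and 5.97 to 2.31, 5.12 and 3.51 CPM in null cells and stayed at 0.727 to 1.85 CPM in WT cells with either vector, with an interaction of -1.38 ± 0.39 (SE, adjusted p = 0.0374) and no call without the block (adjusted p = 0.55).

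**Figure D2:**
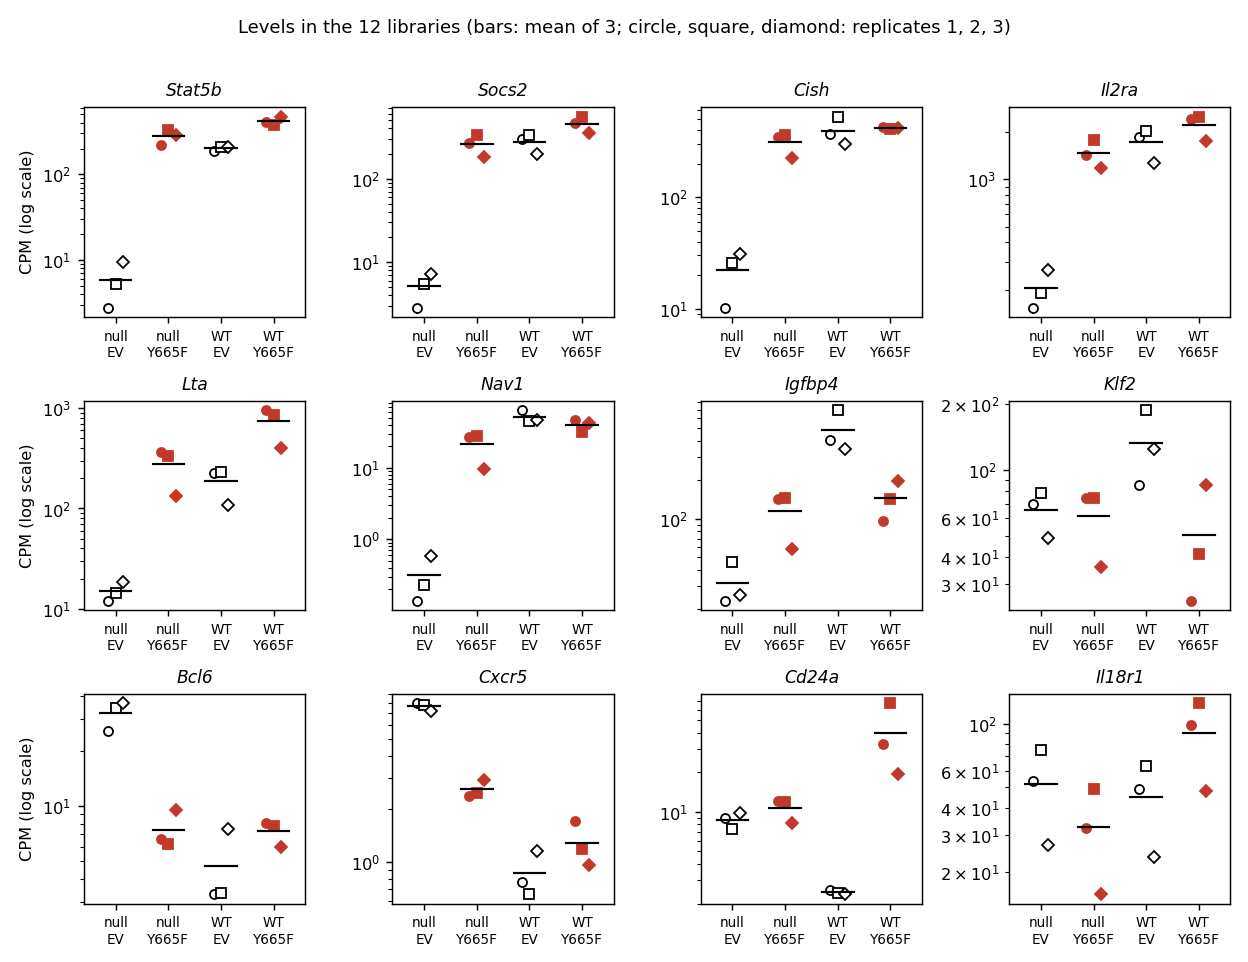
CPM on a log axis are shown for 12 genes in the 4 groups, with 1 marker per library (circle, square and diamond for replicates 1, 2 and 3; open for empty vector, filled for Y665F) and a bar at the mean of 3. Stat5b, Socs2, Cish, Il2ra, Lta and Nav1 are low only in null cells with the empty vector, Bcl6 and Cxcr5 are high only there, Klf2 and Igfbp4 are lower with Y665F in WT cells, and Cd24a is highest in WT cells with Y665F.

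Of 28 cytokine genes, 11 rose in null cells and 7 in WT cells, 1 fell in each, and 6 were called higher and none lower by the interaction. Of all genes tested, 1.82% rose and 1.18% fell in null cells and 1.42% rose and 0.874% fell in WT cells. The interaction called 0.947% of them higher and 0.396% lower. Lta (chr17:35203165-35205351) encodes lymphotoxin alpha, a TNF family cytokine of lymphoid tissue. Its level was 12, 14.3 and 18.4 CPM in null cells with the empty vector, 369, 334 and 132 CPM in null cells with Y665F, 223, 230.5 and 109.5 CPM in WT cells with the empty vector and 955, 862 and 400.5 CPM in WT cells with Y665F. Neither background's groups overlapped. Lta rose by 4.11 ± 0.24 (SE, adjusted p = 3.33e-14) in null and by 1.95 ± 0.21 (SE, adjusted p = 1.02e-07) in WT cells, and the interaction was 2.16 ± 0.30 (SE, adjusted p = 1.48e-05).

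Il3, a growth factor of blood progenitors, went from 0.192, 0.116 and 0.483 to 13.9, 11 and 2.86 CPM in null cells and from 9.01, 9.12 and 2.33 to 53.3, 53.8 and 8.54 CPM in WT cells. It rose in both backgrounds, and in each the lowest Y665F library was replicate 3. The interaction was 2.76 ± 0.77 (SE, adjusted p = 0.0347). Il13, a type 2 cytokine gene, had only 4 reads over the 3 null libraries with the empty vector and 253 with Y665F, against 167 and 281 reads in WT cells. Its fitted interaction of 4.73 ± 1.06 (SE, adjusted p = 0.00638) therefore depends on the small count added by the fit. The calls of Lta, Il3 and Il13 did not hold without the replicate block, where the adjusted p was 0.121 for Lta, 0.535 for Il3 and 0.14 for Il13. Whether the other called cytokine genes hold without the block was not tested for the single genes.

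The largest positive interactions belonged to genes that were low in null cells with the empty vector. Nav1 (chr1:135434580-135607295), which encodes a neuron navigator protein, stood at 0.137, 0.232 and 0.587 CPM in null cells with the empty vector, 26.8, 27.6 and 9.64 CPM in null cells with Y665F, 64, 45.3 and 45.9 CPM in WT cells with the empty vector and 46.3, 31.9 and 42.2 CPM in WT cells with Y665F. The null cells with Y665F stayed below all 6 WT libraries, and the WT groups overlapped. The interaction was 6.43 ± 0.48 (SE, adjusted p = 7.59e-11), from 6.08 ± 0.41 (SE, adjusted p = 1.0e-12) in null and -0.35 ± 0.24 (SE, adjusted p = 0.444) in WT cells. Tead1, a transcription factor of the Hippo pathway, went from 0.247, 0.609 and 0.828 to 21.7, 48.2 and 16.3 CPM in null cells and from 17.6, 14.4 and 12.3 to 32.2, 29 and 26 CPM in WT cells, with an interaction of 4.67 ± 0.52 (SE, adjusted p = 2.65e-07). Ifit1bl1, an IFIT family gene, moved in opposite directions: it rose in null cells from 0.825, 0.927 and 0.449 to 12.1, 10.9 and 4.25 CPM and fell in WT cells from 27, 36.7 and 8.21 to 5.73, 10.3 and 6.76 CPM, an interaction of 5.08 ± 0.39 (SE, adjusted p = 9.03e-11). Within the interferon-stimulated list Ifit3 was similar, with responses of 1.93 ± 0.36 (SE, adjusted p = 2.36e-04) in null and -0.93 ± 0.32 (SE, adjusted p = 0.0499) in WT cells, while reads of IFIT family members may be split between near-identical copies. Drc1, a gene of the ciliary dynein regulatory complex, and 6430571L13Rik, a transcript known by its clone name, had interactions of 4.91 ± 0.52 (SE, adjusted p = 1.14e-07) and 4.66 ± 0.32 (SE, adjusted p = 8.32e-12), and neither was called in the WT response.

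Stat5b itself was among these 10, since the vector added it to cells without it. It rose from 2.78, 5.3 and 9.49 to 221, 332 and 286 CPM in null and from 187, 209 and 208 to 406, 374 and 469 CPM in WT cells. With Y665F all 3 null libraries lay below the 3 WT libraries in total Stat5b. The comparison of the backgrounds with Y665F, fitted without a block, gave -0.57 (adjusted p = 0.217) and was not called. Reads of the vector and of the locus were not separated in the files. The interaction was 4.54 ± 0.30 (SE, adjusted p = 5.88e-12). It is a difference of log2 ratios that starts from the low level of null cells, and does not measure how much transcript the vector added. These Stat5b levels accompanied every other result.

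The Akr1c cluster, aldo-keto reductases that act on steroids and prostaglandins, held 3 called genes of 9, all called higher, against 0.947% of all genes tested. Akr1c18, which inactivates progesterone, went from 0.275, 0.203 and 0.345 to 21.7, 28 and 10.4 CPM in null cells and from 15, 20.6 and 53.1 to 34.8, 44.7 and 59.5 CPM in WT cells. WT replicate 3 was the highest with either vector. Its interaction was 5.35 ± 0.41 (SE, adjusted p = 7.59e-11), and those of Akr1c12 and Akr1c13 were 3.14 ± 0.24 (SE, adjusted p = 7.59e-11) and 2.13 ± 0.21 (SE, adjusted p = 3.92e-08). Both rose in null cells (3.18 and 2.36) and were not called in WT cells (0.03 and 0.23). Akr1c13 was not called without the block (adjusted p = 0.13). The genes are related neighbours, so the authors' counting may have dropped reads that they share.

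**Figure D3:**
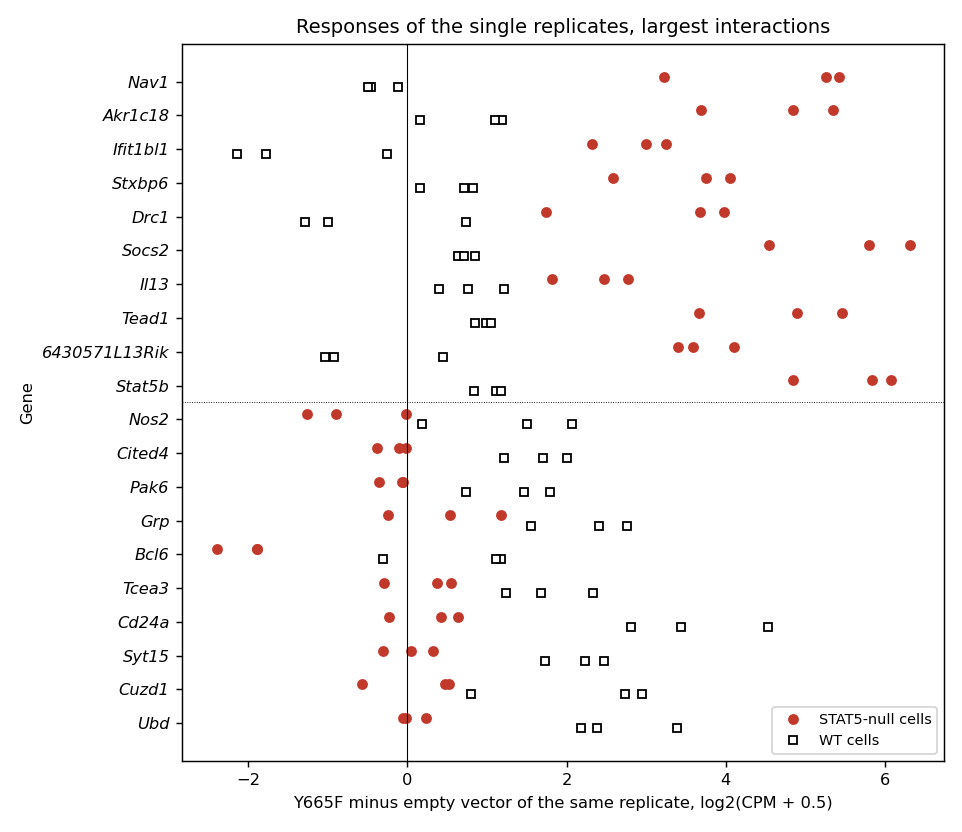
For the 10 genes with the largest positive and the 10 with the largest negative called interactions, points give the difference between Y665F and empty vector of the same replicate as log2(CPM + 0.5), in 3 null (red circles) and 3 WT (open squares) replicates. The rule for choosing them required that circles and squares not overlap; the upper 10 genes have null responses to the right of the WT responses, and in the lower 10 the order is reversed, with all 3 null responses of Bcl6 well below 0.

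Single members of the survival, kinase and trafficking lists were also called. Bcl2, which blocks mitochondrial death, stood at 155, 157 and 129.8 CPM in null cells with the empty vector and 329, 379 and 276 CPM with Y665F, and at 486, 473 and 339.5 and 473, 433 and 289 CPM in WT cells, an interaction of 1.29 ± 0.15 (SE, adjusted p = 5.71e-07). It was the only one called of 20 survival and death genes, of which 10 had an interaction above 0. Over all genes tested 1.34% were called. Pim1, a kinase that promotes survival and growth, went from 16.9, 28.5 and 39.3 to 139.8, 171 and 80.1 CPM in null cells, with overlapping WT groups of 144 to 395 CPM, and had an interaction of 1.96 ± 0.34 (SE, adjusted p = 4.19e-04). Ccr4, a chemokine receptor of helper and regulatory T cells, had responses of 1.59 ± 0.12 (SE, adjusted p = 1.26e-11) in null and 0.23 ± 0.11 (SE, adjusted p = 0.214) in WT cells and an interaction of 1.35. Dusp5, a phosphatase that switches off ERK, and Fosl2, an AP-1 factor, had interactions of 1.23 ± 0.23 (SE, adjusted p = 9.71e-04) and 1.07 ± 0.22 (SE, adjusted p = 0.00305), with WT responses of -0.30 and -0.36 that were not called. Without the block the calls of Pim1 (adjusted p = 0.11) and Fosl2 (adjusted p = 0.226) ended.

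Of 17 regulatory T cell genes, 4 were called higher and 1 lower, against 0.947% and 0.396% of all genes tested. Il2ra has been given above. Lrrc32, which encodes the surface carrier of latent TGF-beta, stood at 1.54, 2.38 and 4.69 CPM in null cells with the empty vector and 24.8, 28 and 17 CPM with Y665F. In WT cells it fell from 82.1, 116 and 44.4 to 18.9, 33.7 and 40.8 CPM, so that all 6 libraries with Y665F lay between the 2 empty-vector groups. The interaction was 4.31 ± 0.48 (SE, adjusted p = 2.40e-07), from 3.05 ± 0.36 (SE, adjusted p = 2.60e-07) in null and -1.26 ± 0.31 (SE, adjusted p = 0.00523) in WT cells. Ikzf4, an Ikaros family repressor, and Tnfrsf18, which encodes the co-stimulatory receptor GITR, had interactions of 1.61 ± 0.29 (SE, adjusted p = 8.38e-04) and 1.12 ± 0.16 (SE, adjusted p = 1.66e-05), with WT responses of -0.07 and -0.18. The call of Ikzf4 ended without the block (adjusted p = 0.0751). Ikzf2, another Ikaros family gene, was called lower, with an interaction of -1.22 (adjusted p = 0.00395). Its responses were -0.37 in null and 0.85 in WT cells. Whether the call of Ikzf2 holds without the block was not tested for this gene.

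A further set with positive interactions held genes whose level fell in WT cells. Of 20 genes of naive and quiescent T cells, 7 fell and none rose in WT cells, 2 fell and 1 rose in null cells, and 4 were called higher by the interaction. Over all genes 0.874% fell and 1.42% rose in WT cells, and 1.18% fell and 1.82% rose in null cells. The interaction called 0.947% of all genes higher. Klf2, a factor that keeps T cells quiescent and recirculating, stood at 85, 187 and 124 CPM in WT cells with the empty vector and at 25.2, 41.4 and 84.7 CPM with Y665F. Null cells held 69.5, 78.2 and 49 CPM without and 74.3, 73.9 and 36.2 CPM with the variant, and these groups overlapped. Klf2 fell in WT cells (-1.45 ± 0.20 (SE, adjusted p = 7.86e-06)), the null response was -0.13 ± 0.20 (SE, adjusted p = 0.776), and the interaction was 1.32 ± 0.28 (SE, adjusted p = 0.00434). Klf3, a related repressor, behaved in the same way, with -1.30 ± 0.18 (SE, adjusted p = 6.01e-06) in WT and -0.19 ± 0.18 (SE, adjusted p = 0.581) in null cells and an interaction of 1.12.

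Igfbp4, which encodes an insulin-like growth factor binding protein and marks naive cells, moved in opposite directions. It rose from 23, 46.2 and 25.5 to 142, 146 and 58.6 CPM in null cells and fell from 408, 693 and 344 to 96.1, 142 and 195 CPM in WT cells. Its interaction was 3.55 ± 0.30 (SE, adjusted p = 7.27e-10), and the Y665F groups overlapped between the backgrounds, with a difference of -0.33 ± 0.32 (SE, adjusted p = 0.662). Ahr, the aryl hydrocarbon receptor, fell in WT cells from 4.52, 6.85 and 4.36 to 1.04, 2.33 and 2.73 CPM and was at 12.2, 10.7 and 18.8 and 14.6, 10.8 and 22.1 CPM in null cells without and with Y665F, an interaction of 1.57 ± 0.28 (SE, adjusted p = 4.87e-04). Entpd1, which encodes the ectoenzyme CD39, fell in WT cells (-1.04 ± 0.19 (SE, adjusted p = 2.44e-04)) and was at 0.95 ± 0.21 (SE, adjusted p = 0.00168) in null cells, under the fold minimum. The chemokine gene Ccl1 rose in null cells (1.91 ± 0.49 (SE, adjusted p = 0.00525)) and had a WT response of -1.29 ± 0.50 (SE, adjusted p = 0.0964). The calls of Klf2, Klf3, Ahr, Entpd1 and Ccl1 ended without the block, at adjusted p of 0.438, 0.47, 0.309, 0.353 and 0.165; that of Igfbp4 did not.

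Some genes with negative interactions fell in null cells without a called WT response. Bcl6 (chr16:23965052-23988852), the repressor that directs follicular helper T cells and that STAT5 opposes, stood at 25.9, 34.7 and 36.6 CPM in null cells with the empty vector and at 6.61, 6.19 and 9.52 CPM with Y665F. In WT cells it was at 3.29, 3.33 and 7.49 and 8.09, 7.82 and 5.98 CPM. The null libraries with the empty vector exceeded all 9 others, and with Y665F the backgrounds overlapped. Bcl6 fell in null cells (-2.13 ± 0.25 (SE, adjusted p = 1.42e-07)), the WT response was 0.66 ± 0.26 (SE, adjusted p = 0.0993), and the interaction was -2.79 ± 0.36 (SE, adjusted p = 3.26e-06). Cxcr5, the chemokine receptor that leads follicular helper cells into B cell follicles, fell from 7.97, 7.8 and 7.21 to 2.37, 2.48 and 2.94 CPM in null cells, while WT cells held 0.657 to 1.70 CPM with either vector, an interaction of -2.11 ± 0.34 (SE, adjusted p = 1.26e-04). Maf, a factor of follicular helper and IL-10 producing cells, fell from 10, 17.4 and 18.6 to 2.94, 5.91 and 9.35 CPM in null cells and was at 1.09, 0.446 and 1.2 and 2.12, 1.42 and 0.479 CPM in WT cells, an interaction of -1.93 ± 0.40 (SE, adjusted p = 0.00315). Bcl6 and Cxcr5 were called in all 19 alternatives run for them; Maf was not called without the block (adjusted p = 0.436). Exons of Cxcr5 overlap Bcl9l on the other strand, and the strand setting of the counting was not given in the sources used here.

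Ctsw, a protease of cytotoxic cells, and Iigp1, an interferon-induced GTPase, had interactions of -1.05 ± 0.29 (SE, adjusted p = 0.0338) and -1.04 ± 0.25 (SE, adjusted p = 0.0119), with null responses of -0.75 and -1.18 and WT responses of 0.31 and -0.14. Iigp1 fell there from 53.6, 90.9 and 167 to 14.2, 44.2 and 108 CPM, against 2.31 to 4.86 CPM in WT cells. Both rested on the block, with adjusted p of 0.794 and 0.843 without it, and exons of Ctsw overlap Fibp on the other strand. Of 25 helper lineage transcription factors, 2 were called higher and 4 lower, and the list's median interaction was -0.11. The shares of all genes tested were 0.947% and 0.396%.

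Others rose in WT cells without a called null response. Cd24a, which encodes the surface glycoprotein CD24, stood at 2.55, 2.42 and 2.36 CPM in WT cells with the empty vector and at 32.5, 66.9 and 19.4 CPM with Y665F. In null cells it was at 8.96, 7.45 and 9.77 and 12.2, 11.9 and 8.25 CPM, and these groups overlapped. The WT cells with the empty vector were the lowest group and those with Y665F the highest. Cd24a rose by 3.85 ± 0.36 (SE, adjusted p = 1.14e-08) in WT cells, the null response was 0.34 ± 0.32 (SE, adjusted p = 0.587), and the interaction was -3.51 ± 0.48 (SE, adjusted p = 1.13e-05), called in all 19 alternatives run for it.

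Syt15, Ubd and Cuzd1 had few reads outside WT cells with Y665F. Syt15, a synaptotagmin, had 16 reads over the 3 WT libraries with the empty vector and 217 with Y665F, against 24 and 25 in null cells. Ubd, a ubiquitin-like modifier induced by inflammation, had 13 and 379 reads in WT and 5 and 7 in null cells. Cuzd1 had 7 and 246 reads in WT and 11 and 21 in null cells. The interactions were -4.05 ± 0.73 (SE, adjusted p = 7.37e-04) for Syt15, -4.79 ± 1.39 (SE, adjusted p = 0.0425) for Ubd and -4.66 ± 1.14 (SE, adjusted p = 0.0134) for Cuzd1. Tcea3, Grp, Pak6, Cited4 and Nos2 stood at 0.930 to 5.56 CPM in WT cells with Y665F and had interactions from -2.89 for Tcea3 to -2.44 for Nos2. Nos2, the inducible nitric oxide synthase, stood at 1.63, 0.399 and 2.02 CPM in WT cells with the empty vector and 5.56, 3.26 and 2.37 CPM with Y665F. Of these 8 genes, Syt15 alone was called without the replicate block; the adjusted p of the others then ran from 0.146 for Pak6 to 0.588 for Grp.

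Irf8, Slc3a2, Slc7a5 and Stat5a had no called difference between the backgrounds. Irf8, an interferon regulatory factor, rose in null cells from 32.4, 49.4 and 152 to 215, 186 and 234 CPM and in WT cells from 55.9, 40.4 and 17.6 to 189.6, 137 and 88.1 CPM. The interaction was -0.26 ± 0.36 (SE, adjusted p = 0.804), and it was 0.28 without null empty-vector replicate 3, the null library with the most Irf8 before the variant. Slc3a2, the heavy chain of amino acid transporters, had responses of 0.24 ± 0.09 (SE, adjusted p = 0.0785) in null and 0.36 ± 0.09 (SE, adjusted p = 0.00957) in WT cells, under the fold minimum, and an interaction of -0.12 ± 0.13 (SE, adjusted p = 0.752). Slc7a5, its light-chain partner, rose in null cells (1.15 ± 0.16 (SE, adjusted p = 3.53e-06)) and had a WT response of 0.44 ± 0.16 (SE, adjusted p = 0.0659), with an interaction of 0.71 ± 0.22 (SE, adjusted p = 0.0692). Stat5a, which no vector supplied, had responses of 0.31 ± 0.18 (SE, adjusted p = 0.291) in null and -0.26 ± 0.13 (SE, adjusted p = 0.237) in WT cells, neither called, and an interaction of 0.58 ± 0.22 (SE, adjusted p = 0.159), and its exons overlap Stat3 on the other strand.

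Metabolic and cell cycle lists held no called interaction, and the AP-1, NFAT and activation list held 1, Fosl2. Of 24 cell cycle and replication genes, 23 had an interaction above 0, as had 19 of 20 cholesterol and fatty acid synthesis genes, 15 of 17 glycolysis genes, 9 of 13 amino acid transporters and 19 of 22 AP-1, NFAT and activation genes, against 12536 of 21975 genes tested. The medians were 0.38, 0.25, 0.25, 0.26 and 0.34, against 0.09. The member with the smallest p was Aurkb, a mitotic kinase, at 0.58 ± 0.11 (SE, adjusted p = 0.00202) in the first list and Slc16a3, a lactate exporter, at 0.72 ± 0.23 (SE, adjusted p = 0.0766) in the third. The remaining lists held few calls: 1 gene higher in each of the TNF receptor, JAK-STAT-phosphatase, checkpoint and PIM-Myc-cyclin lists, 1 higher and 1 lower of 26 interferon-stimulated genes, 3 higher and 1 lower of 30 chemokine and trafficking genes and 1 lower of 19 cytotoxic granule genes. Over all genes tested the interaction called 0.947% higher and 0.396% lower. These lists are described by counts and medians, and members of a list are not independent replicates.

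**Figure D4:**
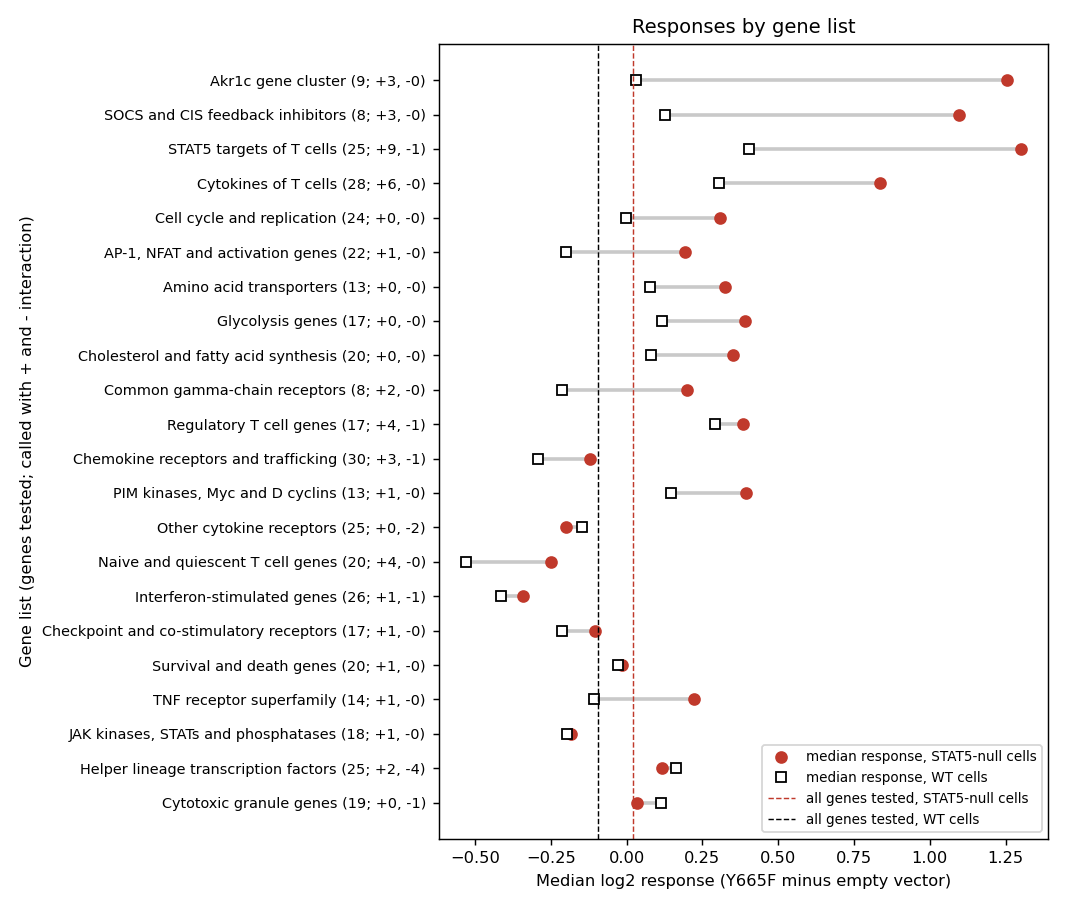
Median log2 responses to Y665F of the members of 22 gene lists are shown for STAT5-null (red circles) and WT cells (open squares), ordered by the median interaction, with the number of genes tested and the numbers called with positive and negative interaction in parentheses. Dashed lines mark the medians over all genes tested, 0.02 in null and -0.09 in WT cells; the null median exceeds the WT median most for the Akr1c cluster, the SOCS genes and the STAT5 targets.

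A list of 25 textbook STAT5 targets had 16 members that rose and 1 that fell in null cells, and 5 that rose in WT cells. The background was 1.82% rising and 1.18% falling of all genes in null cells and 1.42% rising and 0.874% falling in WT cells. The interaction called 9 of the 25 higher and 1, Il18r1, lower, with a median of 0.61, against 0.947% and 0.396% of all genes tested. The study's own list of 318 genes raised by Y665F was chosen on these null libraries, so its null response is no finding and its interaction is biased upward. In the WT libraries, which did not choose it, 99 of the 318 rose and 5 fell, with a median response of 0.55. The null and WT responses shared no library: 133 genes rose in both, which was 33.2% of the 401 that rose in null and 42.8% of the 311 that rose in WT cells, and 62 fell in both, 23.8% of 260 and 32.3% of 192. Across the 11449 genes that averaged 1 CPM or more the responses had a Pearson r of 0.566 and a Spearman rho of 0.466, a description over genes that share libraries.

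The levels before and after the variant were compared between backgrounds in fits without a block. With the empty vector 561 genes were higher in null cells (2.55% of genes tested) and 468 lower (2.13%). With Y665F the counts were 270 (1.23%) and 150 (0.683%). Within these comparisons Socs2 differed by -5.75 ± 0.34 (SE, adjusted p = 3.60e-12) with the empty vector and by -0.82 ± 0.28 (SE, adjusted p = 0.0924) with Y665F, Cish by -4.15 ± 0.31 (SE, adjusted p = 6.28e-10) and -0.42 ± 0.28 (SE, adjusted p = 0.467), and Il2ra by -3.08 ± 0.25 (SE, adjusted p = 1.44e-09) and -0.59 ± 0.23 (SE, adjusted p = 0.152). For Bcl6 the difference was 2.77 ± 0.31 (SE, adjusted p = 5.11e-07) with the empty vector and 0.02 ± 0.30 (SE, adjusted p = 1) with Y665F. Cd24a was higher in null cells with the empty vector (1.84 ± 0.48 (SE, adjusted p = 0.01)) and lower there with Y665F (-1.88 ± 0.46 (SE, adjusted p = 0.0175)). These pairs share libraries with the interaction and are its components, not further evidence for it. The count with Y665F ranged from 127 without the null Y665F library of replicate 3 to 828 without the WT Y665F library of replicate 3, and was 1050 without all of WT replicate 3.

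The vector with unmutated STAT5B was also taken as the control, to ask about the substitution itself. When unmutated STAT5B took the place of the empty vector, the response to Y665F over STAT5B differed between backgrounds for 1 gene of 21975 (0.00455%) by edgeR, and DESeq2 called 4. By edgeR 435 genes had an unadjusted p under 0.05, a share of the genes tested that is itself smaller than 0.05. The gene called by edgeR was Stxbp6, a syntaxin-binding protein gene, at 1.64 ± 0.27 (SE, adjusted p = 0.0287). That value compares Y665F with the unmutated STAT5B vector, whose levels are not given here. With Y665F, Stxbp6 stood at 10.5, 7.42 and 3.51 CPM in null and 17.3, 27.1 and 3.19 CPM in WT cells. With the empty vector, which this contrast does not use, it stood at 0.165, 0.0869 and 0.173 CPM in null and 15.4, 15.2 and 1.75 CPM in WT cells. WT replicate 3 was far below the other WT replicates with either vector, and neither this contrast nor its interaction with the empty vector as control was called without the block (adjusted p = 0.102 for the latter). For Socs2 this contrast gave 0.74 ± 0.24 (SE, adjusted p = 1), for Cish 0.55 ± 0.30 (SE, adjusted p = 1) and for Bcl6 -0.66 ± 0.35 (SE, adjusted p = 1), none of them called. A p that misses the threshold does not show that the backgrounds responded alike to the substitution.

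The called genes were then read in 12 libraries that the interaction did not compare. These held the same cells with N642H, an activating STAT5B variant, or Y665H, the variant with histidine at the same tyrosine, and gave the interaction of N642H minus Y665H between null and WT cells. Over all genes tested this contrast called 156 higher (0.71%) and 135 lower (0.614%), with a median of -0.00168. Of the 208 genes with a positive Y665F interaction, 203 were above 0 and 98 were called higher, none lower. Of the 87 with a negative Y665F interaction, 85 were below 0 and 35 were called lower, none higher. The libraries came from the same numbered replicates, so the 2 contrasts share cell sources but no library. Socs2 had 3.34 ± 0.25 (SE, adjusted p = 1.78e-10) there, Nav1 3.96 ± 0.40 (SE, adjusted p = 6.51e-08), Il2ra 2.23 ± 0.22 (SE, adjusted p = 3.94e-08), Bcl6 -2.51 ± 0.36 (SE, adjusted p = 3.51e-05), Cd24a -3.0 ± 0.48 (SE, adjusted p = 1.80e-04) and Il18r1 -1.96 ± 0.22 (SE, adjusted p = 3.93e-07). Stat5b, present in both vectors, had -0.10 ± 0.28 (SE, adjusted p = 0.929), and Il3 and Cuzd1 were not called there (0.17 ± 0.62 (SE, adjusted p = 0.952) and -1.53 ± 1.40 (SE, adjusted p = 0.654)).

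**Figure D5:**
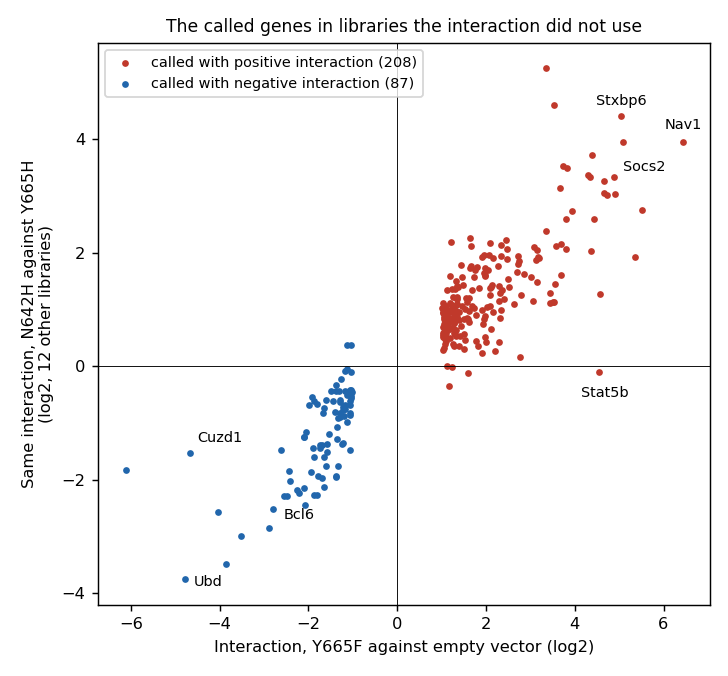
For the 295 called genes, the interaction of Y665F against the empty vector (horizontal, log2) is plotted against the interaction of N642H against Y665H from 12 other libraries (vertical, log2). Of the 208 red genes 203 lie above the horizontal axis and of the 87 blue genes 85 lie below it, and Stat5b lies close to the axis at -0.10.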

How the data were processed

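RNA-seq counts of 30 CD4+ T cell libraries (10 groups of 3) were used; the 31 libraries of splenic material were not. Per the labels and the study's methods, the authors trimmed reads (Trimmomatic 0.36), aligned them to mm10 (STAR) and counted them per gene (HTSeq 0.9.1). The deposited values are these counts, unnormalized, for 24421 genes; reads without a gene, 28.8 to 34.7% of the 12 libraries, stayed out of library sizes and tests. Groups were taken from the titles.

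Genes with at least 10 reads over the 30 libraries were fitted in R 4.3.3 with edgeR 4.0.16 (TMM scaling, glmQLFit, glmQLFTest) and p-values of all 21975 genes adjusted together (Benjamini-Hochberg). Called genes had an adjusted p under 0.05 and a log2 difference beyond 1. SE is the log2 difference divided by the square root of F. CPM are reads scaled to library size after TMM. Responses and interactions had replicate number as a block within each background; comparisons between backgrounds had none, since blocks within backgrounds leave out the spread between cultures. Same-numbered pairs of libraries correlated in their deviations from group means above 0.1 in 30 of 30 pairs of null cells (median 0.450) and 29 of 30 of WT cells (median 0.649), and in 35 of 75 pairs across backgrounds. No 2 replicate libraries agreed within counting noise (chi-square per degree of freedom from 28.3 to 139.8). The fit was also run on counts simulated from the same blocked fit, with known interactions placed in 200 genes with higher counts. Such a run cannot decide whether the block is right, since it was simulated with it, or how calls with few reads fare.

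Genes are named by a rule: 8 genes of the pathway, the 10 largest called interactions in each direction (at least 1 CPM in a group, replicate responses not overlapping), up to 3 called members of each gene list or, with none called, the member with the smallest p, and up to 3 in each direction of the contrast with unmutated STAT5B; 1 gene that the rule selects is not reported here. The genes and lists were chosen with earlier results of these data known. Alternatives were no block, a shared block, 1 factor of unwanted variation, other scalings and filters, DESeq2 1.42.0, the compared libraries alone, no fold minimum and leaving out each library. Columns of fold changes in the study's tables were not used. Promoter sequences are from RefSeq (GRCm38.p6); gene coordinates and the coding sequence are from GENCODE M21.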

Additional observations from a re-analysis of the deposited data

Results flagged for a closer look

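The difference between the backgrounds was itself tested by the interaction, which called 295 genes. The named genes with a higher response in null cells had these interactions on the log2 scale: Nav1 6.43, Akr1c18 5.35, Ifit1bl1 5.08, Stxbp6 5.04, Drc1 4.91, Socs2 4.88, Il13 4.73, Tead1 4.67, 6430571L13Rik 4.66, Stat5b 4.54, Lrrc32 4.31, Cish 3.69, Igfbp4 3.55, Ccl1 3.20, Akr1c12 3.14, Ifit3 2.86, Il3 2.76, Socs1 2.48, Il2ra 2.44, Lta 2.16, Akr1c13 2.13, Entpd1 1.99, Pim1 1.96, Ikzf4 1.61, Ahr 1.57, Ccr4 1.35, Il4ra 1.32, Klf2 1.32, Bcl2 1.29, Dusp5 1.23, Tnfrsf18 1.12, Klf3 1.12 and Fosl2 1.07. Those with a higher response in WT cells had Ubd -4.79, Cuzd1 -4.66, Syt15 -4.05, Cd24a -3.51, Tcea3 -2.89, Bcl6 -2.79, Grp -2.63, Pak6 -2.56, Cited4 -2.48, Nos2 -2.44, Cxcr5 -2.11, Maf -1.93, Il18r1 -1.69, Il1r2 -1.38, Ctsw -1.05 and Iigp1 -1.04. The contrast with unmutated STAT5B gave a further value, 1.64 for Stxbp6. No group had more than 3 libraries, so single libraries were not tested as outliers.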

How the results depend on the processing

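The interaction called 295 genes. Without the replicate block it called 92, with a shared replicate block over both backgrounds 164 and with 1 factor of unwanted variation in place of the block 117; without the block the null response had 396 genes and the WT response 233, and with the factor the WT response had 328. The blocked fits compare libraries within a replicate, and which spread is the right one was not tested. Without a fold minimum the counts were 904 for the interaction, 3613 and 2658 for the null and WT responses, and 3052 and 849 for the differences between backgrounds with the empty vector and with Y665F. Without WT replicate 3, an alternative chosen after seeing the data, the interaction called 515 and the difference with Y665F 1050. Leaving out 1 library at a time gave 200 to 504 for the interaction, 468 to 868 and 333 to 617 for the null and WT responses, 658 to 1216 for the difference with the empty vector and 127 to 828 for that with Y665F; the cause was not tested. The contrast with unmutated STAT5B, at 1 gene, gave 0 without the replicate block, with the shared block, the factor, RLE scaling, library totals or filterByExpr, 4 with DESeq2, 3 without a filter or without WT replicate 3, 23 with the compared libraries alone and 0 to 3 with 1 library left out. The other scalings, filters, DESeq2 and the compared libraries alone left the other 5 counts within 1.5 times. Of 49 named genes called by the interaction, 22 were called in all 19 alternatives run for genes and 27 lost the call in at least 1, 25 of them without the block, and none changed direction; of 7 not called, Irf8 ranged from -0.60 without null empty-vector replicate 1 to 0.28, a change of direction, without null empty-vector replicate 3. Genes with few reads, such as Ubd, Cuzd1, Grp and Il13, are limited by depth.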

Other observations

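The following called genes lie outside the naming rule and were picked after their values were seen. Itgb3, an integrin chain, fell in WT cells from 138, 217 and 131 to 31.7, 45.1 and 63 CPM, while null cells held 51.7, 48 and 28.3 and 64.8, 51.7 and 39.9 CPM without and with Y665F, an interaction of 2.12 ± 0.22 (SE, adjusted p = 5.63e-08). Icosl, which encodes the ligand of ICOS, and Rasgrp2, an exchange factor of integrin activation, also fell in WT cells (-1.59 ± 0.20 (SE, adjusted p = 1.07e-06) and -2.04 ± 0.22 (SE, adjusted p = 1.06e-07)), with interactions of 2.40 and 2.09. S1pr1, the receptor that lets T cells leave lymph nodes, had an interaction of 1.06 ± 0.23 (SE, adjusted p = 0.00509).

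Muc13, a membrane mucin gene, rose in null cells from 1.79, 1.1 and 1.04 to 52.9, 45.8 and 12.1 CPM and stood at 41.8, 27.5 and 24.1 and 51.2, 61.4 and 48.5 CPM in WT cells, an interaction of 3.93 ± 0.37 (SE, adjusted p = 1.07e-08). Xbp1, a factor of the unfolded protein response, went from 66.7, 62.5 and 68.9 to 241, 255 and 158 CPM in null and from 325, 351 and 204 to 482, 569 and 344 CPM in WT cells, with an interaction of 1.02 ± 0.16 (SE, adjusted p = 1.03e-04). Sox4, a transcription factor of T cell development, fell in null cells (-1.04 ± 0.19 (SE, adjusted p = 1.27e-04)) and had an interaction of -1.54 ± 0.29 (SE, adjusted p = 0.00116). Cd74, the invariant chain of MHC class II, had an interaction of -1.06 ± 0.14 (SE, adjusted p = 3.76e-06), with levels of 164, 170.0 and 177 and 126, 123 and 161 CPM in null and 28.6, 38.4 and 52 and 51.4, 60.6 and 84.5 CPM in WT cells. Tbx21, the T helper 1 factor T-bet, rose in WT cells (1.17 ± 0.23 (SE, adjusted p = 7.96e-04)) from levels near 1 CPM and had an interaction of -1.05 ± 0.29 (SE, adjusted p = 0.0335), while in null cells its level ranged from 4.34 to 24.6 CPM with the empty vector. Whether these calls hold without the replicate block was not tested for the single genes.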
